A study of Mus musculus with 6 samples.

Results

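The 10 genes described here are pancreatic progenitor and endocrine genes, taken by symbol from the 52550 genes listed for sorted embryonic mouse liver cells. They are Pdx1, Ptf1a, Neurog3, Neurod1, Nkx6-1, Nkx2-2, Pax6, Isl1, Chga and Ghrl, and the choice is by name and uses no threshold on a measured value. RNA was sequenced from GFP-positive cells of CD-1 mice carrying Sox9-GFP, a reporter that makes cells expressing Sox9 fluoresce, in 3 libraries at E16.5 and 3 libraries at E18.5. The labels give embryonic days 16 and 18, and the study's own stage names are used here. All 6 libraries share strain, reporter and sort, each came from a pool of livers, and blood lineage cells were depleted before sorting. The libraries are called replicates A, B and C of each stage after their labels. The labels name the sorted cells cholangiocytes, the epithelial cells that line bile ducts, but the gate selects Sox9 reporter activity and not a biliary marker. No group without GFP was used here, so there is no background measured in unsorted or GFP-negative cells.

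The liver, the extrahepatic bile duct and the ventral pancreas arise next to each other from the foregut endoderm. PDX1 and PTF1A specify pancreatic progenitors, which also express SOX9. NEUROG3 is then switched on transiently in single cells that leave the progenitor epithelium for the endocrine fate, and NEUROD1, NKX2-2, NKX6-1, PAX6 and ISL1 act in the islet cell types that follow. PDX1 and NEUROG3 are also made in the duodenum, where NEUROG3 is needed for gut hormone cells. CHGA (chromogranin A) is a protein of hormone-containing granules, and Ghrl encodes ghrelin, a peptide hormone of stomach and of a fetal islet cell type.

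In the GENCODE vM21 annotation of GRCm38, all 10 genes are protein coding. Pdx1 (ENSMUSG00000029644.7) lies on chr5:147269959-147275848 and Ptf1a (ENSMUSG00000026735.2) on chr2:19445663-19447501, both on the plus strand. Neurog3 (ENSMUSG00000044312.4) lies on chr10:62133090-62134763, plus strand, in 1 exon. Neurod1 (ENSMUSG00000034701.9) is at chr2:79452521-79456751, Nkx6-1 (ENSMUSG00000035187.10) at chr5:101658139-101664996 and Nkx2-2 (ENSMUSG00000027434.11) at chr2:147177546-147194243, all on the minus strand. Pax6 (ENSMUSG00000027168.21) is at chr2:105668900-105697364 on the plus strand, and Isl1 (ENSMUSG00000042258.13) at chr13:116298281-116309689 on the minus strand. Chga (ENSMUSG00000021194.6) is at chr12:102554969-102565028 on the plus strand, and Ghrl (ENSMUSG00000064177.8) at chr6:113716119-113719880 on the minus strand.

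The basic helix-loop-helix factors among these genes, PTF1A, NEUROG3 and NEUROD1, bind the E-box, written CANNTG, which reads the same on both strands. The promoters of 3 genes are shown as context for the levels that follow: Neurog3, the inducer of the endocrine fate, and Chga and Ghrl, the genes with the highest mean levels. Each run is the 250 bases before a RefSeq start site on GRCm38.p6, 5′ to 3′ on the gene's strand, with E-boxes in capitals; the Ghrl window belongs to the outermost of its listed starts. The windows are chr10:62132840-62133089 (plus strand) for Neurog3, chr12:102554691-102554940 (plus strand) for Chga and chr6:113719912-113720161 (minus strand) for Ghrl.
Neurog3: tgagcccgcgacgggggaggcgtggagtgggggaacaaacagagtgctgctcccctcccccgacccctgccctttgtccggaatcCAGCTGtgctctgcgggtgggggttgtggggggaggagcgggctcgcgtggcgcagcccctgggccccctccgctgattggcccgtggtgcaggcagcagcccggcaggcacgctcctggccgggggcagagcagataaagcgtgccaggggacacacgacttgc
Chga: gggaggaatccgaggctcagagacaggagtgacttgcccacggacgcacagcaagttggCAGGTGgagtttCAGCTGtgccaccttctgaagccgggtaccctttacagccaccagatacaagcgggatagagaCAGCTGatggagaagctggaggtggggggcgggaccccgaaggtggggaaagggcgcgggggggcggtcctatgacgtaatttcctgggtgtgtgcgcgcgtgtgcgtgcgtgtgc
Ghrl: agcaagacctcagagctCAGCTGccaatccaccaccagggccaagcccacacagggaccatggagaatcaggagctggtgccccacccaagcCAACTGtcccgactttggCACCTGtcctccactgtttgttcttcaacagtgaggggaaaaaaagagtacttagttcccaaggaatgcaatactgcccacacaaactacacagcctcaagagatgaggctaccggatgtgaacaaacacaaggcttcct
The Neurog3 window holds 1 E-box, 165 bases before the start. The Chga and Ghrl windows hold 3 each. Of 32851 mouse promoters of this length, 66.2% hold at least 1 E-box and 12.2% hold 3 or more. By gene, 8 of the 10 have at least 1 in a listed promoter (Ptf1a and Nkx6-1 have none). Ghrl and Pax6 have more than 1 listed promoter, so this count by gene is not comparable with the share of single promoters. A match in the letters is a description and not a binding site.

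The recovered reads came to between 13093937 in E18.5 replicate C and 26206374 in E16.5 replicate A, so low levels at E18.5 rest on fewer reads. All levels are in TPM, which is the read count divided by gene length and scaled to the same total in every library. Libraries stood apart in other cell type markers. The summed level of 12 pancreatic acinar genes was 4150, 491 and 231 TPM in E16.5 replicates A, B and C, then 61.3, 103 and 34.2 TPM at E18.5. The summed level of 11 cholangiocyte markers was 2101, 2636 and 799 TPM at E16.5 and 11904, 14141 and 8245 TPM at E18.5. Spp1 alone gave most of this sum, at 1278, 1767 and 469 TPM at E16.5 and 10012.5, 12121 and 6629 TPM at E18.5. Of the 11 cholangiocyte markers, 9 to 11 were at 1 TPM or more in each library. Hepatoblast markers were abundant as well, with a sum of 158598 to 199161 TPM at E16.5 and 36434 to 85324 TPM at E18.5, highest in E16.5 replicate C. Alb alone gave 148077 TPM there, and not every marker in the sum was highest in that library. E16.5 replicate A was thus high in acinar transcripts and E16.5 replicate C low in cholangiocyte markers, and every cholangiocyte sum at E18.5 was above every sum at E16.5. In such bulk libraries fewer cells of a type and less RNA per cell cannot be told apart.

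Pdx1 was present in all 6 libraries and all but absent from a single library of the earlier stage. Its level was 8.43, 5.70 and 0.290 TPM in E16.5 replicates A, B and C, from 156, 96 and 5 reads, and 6.44, 5.80 and 4.79 TPM at E18.5, from 95, 64 and 42 reads. Replicate C at E16.5 stood far below the rest, while the E18.5 values lay within 1.34-fold of each other. Replicate A exceeded replicate C at E16.5 by 29.0-fold, with a 95% exact interval of 12.2 to 90.6, and replicate B exceeded it by 19.6-fold (8.13 to 61.8). These intervals cover counting error only, because PCR copies of a molecule were not marked and reads are not independent. The E16.5 mean of 4.81 ± 4.14 TPM (SD, n = 3) placed Pdx1 at percentile 49.9 of protein-coding genes, and the E18.5 mean of 5.68 ± 0.829 TPM (SD, n = 3) at percentile 48.2.

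Ptf1a, which acts with PDX1 in early pancreatic specification and later a regulator of acinar enzymes, was close to undetected. It had 4 reads in E16.5 replicate A, or 0.309 TPM, and 0 reads in the other 5 libraries. A count of 0 allows up to 3 reads, which is 0.249 to 0.490 TPM across those libraries. The 95% exact interval of the 0 reached 0.314 TPM in E16.5 replicate B, and 0.358 TPM or more in the E18.5 libraries. A level like that in E16.5 replicate A is therefore not excluded there. In E16.5 replicate C the interval reached 0.307 TPM, just under it. Of its exon sequence, 40.4% overlaps the antisense gene Ptf1aos, which is listed at 0 in all 6 libraries.

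Neurog3, the inducer of the endocrine fate, was highest in E16.5 replicate A. It measured 9.41, 2.60 and 0 TPM in E16.5 replicates A, B and C, from 135, 34 and 0 reads, and 1.31, 2.1 and 0.441 TPM at E18.5, from 15, 18 and 3 reads. Replicate A was 3.61-fold above replicate B (95% exact interval 2.46 to 5.43) and at least 41.9-fold above replicate C, taking 3 reads as the limit for the library at 0. The 3 libraries of E16.5 therefore spanned the whole range seen, and the E18.5 values lay inside it. The means were 4.0 ± 4.86 TPM at E16.5 against 1.29 ± 0.832 TPM at E18.5 (SD, n = 3 each). Neurog3 shares 16.3% of its exon sequence with Fam241b on the opposite strand, which measured 1.05 to 3.81 TPM, and whether the counting used strand is not given in the sources used here. Fam241b was lowest in E16.5 replicate C, as Neurog3 was, but highest in E18.5 replicate B.

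The factors that act after NEUROG3 had lower means over the 6 libraries than Neurog3 itself, and followed the same order at E16.5. Neurod1, a direct target of NEUROG3, measured 1.54, 0.799 and 0 TPM in E16.5 replicates A, B and C, then 0.964, 0.215 and 0 TPM at E18.5. It was listed at 0 in replicate C of both stages. Its exons overlap those of Cerkl on the same strand over 7.37% of their length, and Cerkl was highest, at 7.73 TPM, in E16.5 replicate C, where Neurod1 had 0 reads.

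Nkx6-1, a homeodomain factor of beta cells and their progenitors, measured 1.97, 0.858 and 0.120 TPM at E16.5 and 0.280, 0.499 and 0.157 TPM at E18.5, in the order A, B, C. Nkx2-2, which is needed for several islet cell types, measured 2.51, 1.03 and 0.174 TPM at E16.5 and 0.712, 0.749 and 0.171 TPM at E18.5. For both genes replicates A and B of E16.5 were above every E18.5 library, and replicate C of E16.5 lay near the lowest of them, on 3 reads for Nkx6-1 and 4 for Nkx2-2. The antisense gene Nkx2-2os, which covers 9.67% of the Nkx2-2 exons, stayed between 0.0537 and 0.360 TPM.

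Pax6, a paired-box factor of all islet cell types, measured 0.838, 0.80 and 0.0965 TPM at E16.5 and 0.400, 0.703 and 0.295 TPM at E18.5. Isl1, a LIM homeodomain factor of islet cells and of several neurons, measured 1.97, 1.49 and 0.158 TPM at E16.5 and 0.665, 1.14 and 0.622 TPM at E18.5. For these genes replicates A and B at E16.5 lay close together, with A over B ratios of 1.05 for Pax6 (95% exact interval 0.756 to 1.45) and 1.32 for Isl1 (0.897 to 1.97), neither distinguishable from 1 at this depth. Replicate C was again the low library of E16.5.

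Chga varied between libraries of both stages. It measured 13.1, 5.49 and 0.955 TPM in E16.5 replicates A, B and C, from 310, 118 and 21 reads, and 2.49, 10.4 and 5.81 TPM at E18.5, from 47, 147 and 65 reads. At E18.5 replicate A, not C, was the lowest, at 0.239 times replicate B (95% exact interval 0.168 to 0.334). The means, 6.52 ± 6.15 TPM at E16.5 against 6.25 ± 3.99 TPM at E18.5 (SD, n = 3 each), were nearly equal beside this spread.

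Ghrl had the highest mean level of the 10 genes and the narrowest range at E16.5. It measured 18.3, 14.4 and 9.64 TPM at E16.5, from 169, 121 and 83 reads, and 17.2, 20.1 and 23.5 TPM at E18.5, from 127, 111 and 103 reads. Values at E18.5 were mostly above those at E16.5, but E18.5 replicate A lay below E16.5 replicate A, so the stages overlapped. Replicate A of E16.5 exceeded replicate C by 1.89-fold (95% exact interval 1.45 to 2.49), whereas the corresponding ratio of highest to lowest was 8.68-fold for Pax6, 12.5-fold for Isl1, 13.7-fold for Chga, 14.4-fold for Nkx2-2 and 16.4-fold for Nkx6-1. The means were 14.1 ± 4.32 TPM at E16.5 against 20.3 ± 3.15 TPM at E18.5 (SD, n = 3 each), at percentiles 64.7 and 66.5 of protein-coding genes. Over 15.7% of its exon sequence Ghrl overlaps Gm44033 on the opposite strand, which measured 3.02, 1.66 and 4.33 TPM at E16.5 and 8.83, 11 and 9.92 TPM at E18.5. Reads from the overlap cannot be told apart without knowing the strand setting, so the level of Ghrl is uncertain to that extent.

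**Figure D1:**
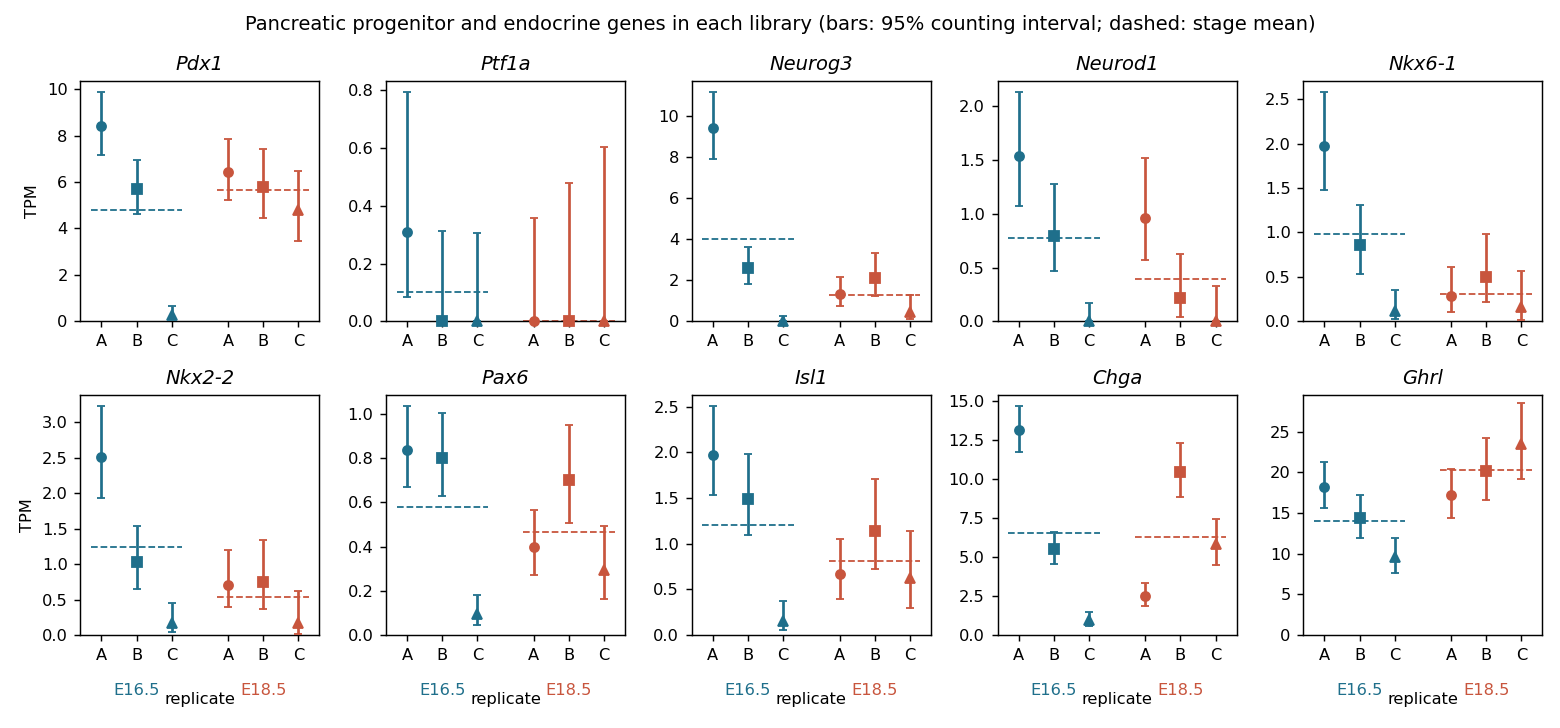
Level of each gene in TPM (vertical axes, separate scales) in replicates A, B and C of E16.5 (blue) and E18.5 (red), with bars for the 95% counting interval and dashed lines for the stage mean. Replicate A is the highest E16.5 library in all 10 panels, replicate C of E16.5 is the lowest or tied at 0 within its stage in all 10, and Ghrl spans only 9.64 to 23.5 TPM.

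Ordered by mean level over the 6 libraries, Ghrl came first, followed by Chga, Pdx1, Neurog3 and Isl1, and then Nkx2-2, Nkx6-1, Neurod1, Pax6 and Ptf1a. Ghrl was above each of the other 9 genes in all 6 libraries. The means of Chga, Pdx1 and Neurog3 were 6.38, 5.24 and 2.64 TPM, closer together than the spread of each at E16.5, and their order changed between libraries, with Neurog3 above Pdx1 in E16.5 replicate A and below it in the other 5. The last 5 genes had means under 1 TPM, and neighbours in that order differed by less than their spread at E16.5, apart from Ptf1a, which lay below Pax6 by more.

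The 10 genes shared a library order at E16.5. Replicate A was above B in 10 of 10 genes and the order A, B, C held in 9 of 10, the exception being Ptf1a, which was at 0 in both B and C. The interval of the A over B ratio lay above 1 for 7 genes, and that of the B over C ratio for 9 of 9 genes with a value. E16.5 replicate A was the highest of all 6 libraries for 9 of 10 genes, with Ghrl the exception. E16.5 replicate C was the lowest, or tied at 0, for 9 of 10, with Nkx2-2 the exception by 0.174 against 0.171 TPM. At E18.5 replicate B was highest for 6 genes and replicate C lowest for 7. The share of all genes with these orders or intervals was not counted, so they cannot be called particular to the 10 genes. The order A, B, C at E16.5 also held for 9 of the 12 acinar genes. In lists described below it held for 8 of 14 further endocrine factors, 5 of 7 islet hormones and 8 of 14 granule and processing genes. Of the 60 values, 13 rest on 3 reads or fewer, and 5 genes had more than 3 reads in every library.

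Neurog3, Neurod1, Nkx6-1, Nkx2-2, Pax6 and Isl1 together summed to 18.2, 7.58 and 0.549 TPM in E16.5 replicates A, B and C, then to 4.33, 5.41 and 1.69 TPM at E18.5. Set against E16.5 replicate A, the sum was 41.5% in B and 3.01% in C, and 23.7%, 29.6% and 9.25% in the E18.5 libraries. The acinar sum was 11.8% in B and 5.56% in C, and 1.48%, 2.48% and 0.824% at E18.5. The cholangiocyte sum, most of it Spp1, took another course, with 125% in B, 38.0% in C, and 567%, 673% and 392% at E18.5. Ghrl stood at 78.7% and 52.8% in B and C and at 94.2%, 110% and 129% at E18.5. Thus E16.5 replicate A was the richest in both acinar and endocrine factor transcripts. E16.5 replicate C was poor in endocrine factors and in cholangiocyte markers at once. It was the highest of the 6 in the hepatoblast sum, which is mostly Alb, at 126% of replicate A. The part of these differences in the levels of the 10 genes was not tested.

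**Figure D2:**
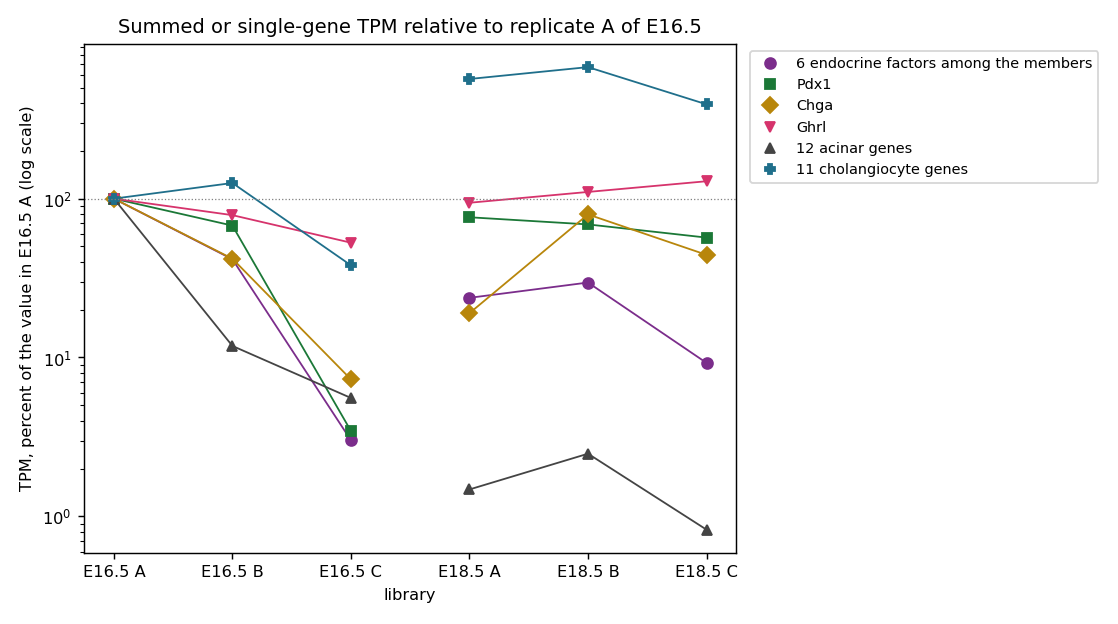
Levels as a percentage of E16.5 replicate A (vertical log axis) in each library (horizontal axis), for Pdx1, Chga, Ghrl, the sum of the 6 endocrine factors, and the summed acinar and cholangiocyte markers. The endocrine factor sum dips to 3.01% in E16.5 replicate C while Ghrl does not go under 52.8%, and the acinar sum stays at or under 2.48% in all E18.5 libraries. Most of the cholangiocyte sum is Spp1 in every library.

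The comparison of the stages asks whether these genes differ between early and later biliary development. No difference passed the test for any of them. A gene was called when the Benjamini-Hochberg adjusted p of limma on log2(TPM + 1), over 22452 genes averaging 1 TPM or more, was under 0.05. Over those genes 31.2% were called, with 83.3% of those calls toward E18.5, against 38.1% of 3795 calls under median-of-ratios scaling. Of the 10 genes, 5 passed the filter. Of these, 0 were called and 0 had an unadjusted p under 0.05 in limma, and limma voom on recovered reads also gave 0 and 0. The stages did not overlap in 53.3% of genes tested, and in 0 of the 5 tested here. They also overlapped or tied in the other genes of the 10, which fell under the filter and are not comparable with that share. The log2 fold change, E18.5 minus E16.5, was 0.61 for Pdx1 (SE 0.70, adjusted p = 0.509), -0.62 for Neurog3 (SE 0.81, adjusted p = 0.568), -0.19 for Isl1 (SE 0.43, adjusted p = 0.744), 0.20 for Chga (SE 0.75, adjusted p = 0.848) and 0.53 for Ghrl (SE 0.24, adjusted p = 0.131). For the first 4 the standard error was larger than the difference itself. The median of the 5 was 0.20, beside 0.42 over all genes tested, and under median-of-ratios scaling the median of all genes was 0.01.

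The other 5 genes fell under the filter and were fitted only without it, among 43310 genes, where 0 of the 10 had an adjusted or unadjusted p under 0.05. In that fit the log2 fold change was -0.49 for Nkx6-1 (SE 0.37, adjusted p = 0.480), -0.42 for Nkx2-2 (SE 0.43, adjusted p = 0.568), -0.31 for Neurod1 (SE 0.41, adjusted p = 0.653), -0.13 for Ptf1a (SE 0.13, adjusted p = 0.555) and -0.08 for Pax6 (SE 0.27, adjusted p = 0.872). A pseudocount of 1 understates changes at these levels. By the exact two-sided permutation test on TPM, p lay between 0.2 for Ghrl and 1 for Chga and Ptf1a, where 3 libraries against 3 cannot give less than 0.1.

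Single libraries set the direction of several differences. Without E16.5 replicate C the log2 fold change of Pdx1 went to -0.26, that of Chga to -0.56 and that of Neurog3 to -1.49, and without E16.5 replicate A it went to 1.18 for Pdx1, 0.86 for Chga and 0.20 for Neurog3. The difference of Isl1 turned too, to 0.079, without E16.5 replicate A. The difference of Chga also turned, to -0.21, without E18.5 replicate B. None of these values passed the test. Ghrl stayed above 0 in every fit, from 0.09 under median-of-ratios scaling to 0.72 without E16.5 replicate A, with adjusted p from 0.0741 to 0.791.

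**Figure D3:**
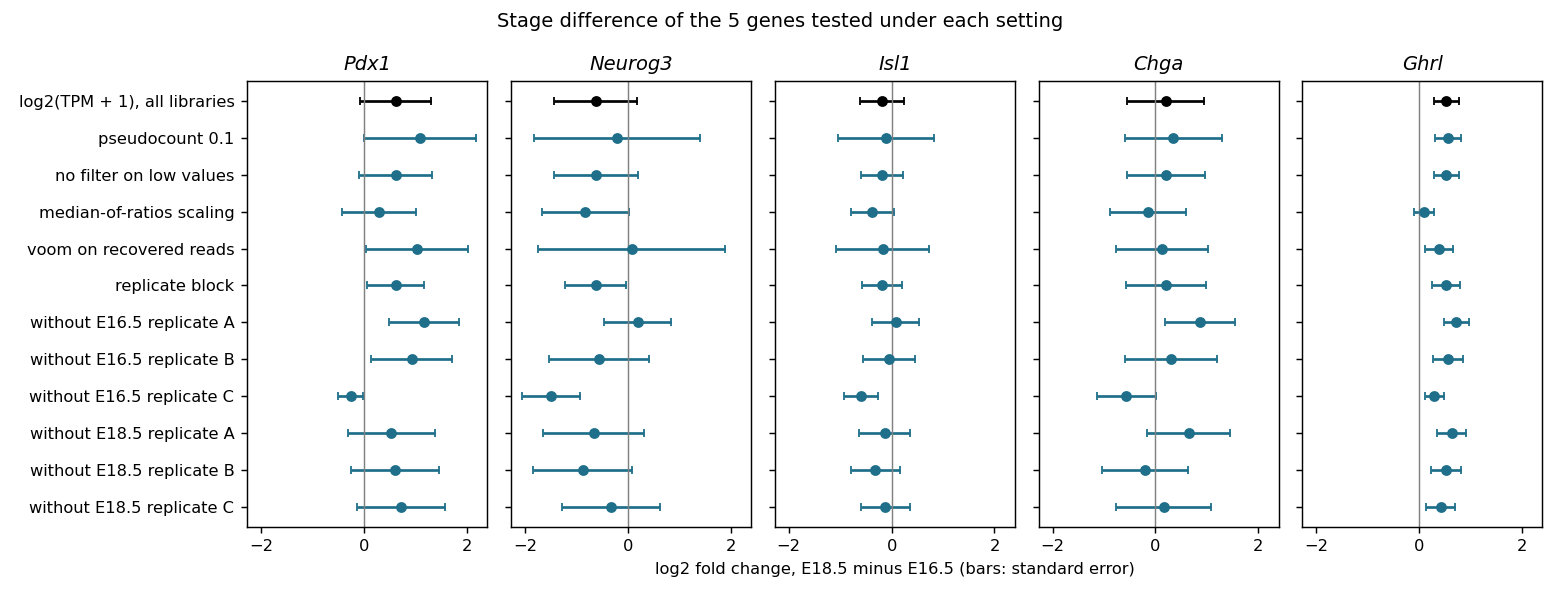
Log2 fold change between the stages (E18.5 minus E16.5, horizontal axis) of the 5 genes tested, with bars for the standard error, over all libraries (black, top) and under 11 alternatives including each library left out (blue). No value passed the threshold, and leaving out E16.5 replicate A or C moves Neurog3 between 0.20 and -1.49.

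Other genes of the same pathways were read from the same fit, in lists of 59 genes of which 38 were tested, 12 were higher and 1 was lower at E18.5. This stands beside 31.2% of all tested genes called, 83.3% of them higher. The calls came almost wholly from progenitor factors that the biliary lineage shares with the pancreas: 11 of 13 tested rose, 0 fell, with a median of 1.21 beside 0.42 over all genes, and under median-of-ratios scaling 8 were called with a median of 0.76 beside 0.01. Sox9, the gene behind the sort, rose by 1.68 (SE 0.35, adjusted p = 0.0174), from 138 ± 60.7 to 411 ± 56.4 TPM (SD, n = 3 each). Onecut2 rose by 1.70, Prox1 by 1.22 and Glis3 by 2.59, and Foxa2, Gata6, Onecut1, Hhex, Hes1 and Nr5a2 also passed. Without E18.5 replicate A only 2 genes of all the pathway lists were called in place of 13, and without E18.5 replicate B 8 were. In this list the count went to 2 and 7 without those libraries, and Sox9 lost its call in both cases. Foxa1 and Gata4 did not pass, and are named after their values were seen.

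Of 14 further endocrine transcription factors, 5 were tested and 0 were called in limma, with a median of -0.37, and 0 had an unadjusted p under 0.05, as in limma voom. The median turned to 0.25 without E16.5 replicate A, and was -0.88 without E16.5 replicate C and -0.13 without E18.5 replicate C. Insm1, a zinc finger factor induced by NEUROG3, measured 5.23, 1.49 and 0.364 TPM in E16.5 replicates A, B and C, then 1.56, 1.51 and 0.318 TPM at E18.5. Rfx6, which acts in islet and gut hormone cells, measured 3.64, 3.04 and 0.406 TPM at E16.5 and 0.583, 0.927 and 0.675 TPM at E18.5. Both were highest in E16.5 replicate A, as 7 of the 14 were, and 8 of the 14 held the order A, B, C at E16.5. Rfx6 had a log2 fold change of -0.79 (SE 0.49, adjusted p = 0.235), which became -1.33 (SE 0.30, adjusted p = 0.0359) when E16.5 replicate C was left out. Runx1t1, also tested, was instead highest at E18.5, at 3.07 TPM in replicate B.

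The islet hormones were detected at low levels, and their highest library was mostly not that of the endocrine factors. All 7 were tested in limma, 0 were called and 0 had an unadjusted p under 0.05, with a median of 0.79. Limma voom called 0 of 5 with 0 unadjusted and a median of 0.35. Sst and Ins1 were not in limma voom, so these medians cover different genes. The median was 0.043 without E16.5 replicate C, 0.069 without E18.5 replicate B, 0.37 without E18.5 replicate A and 1.25 without E16.5 replicate A. Sst, somatostatin, measured 7.79, 12.6 and 0.209 TPM at E16.5 and 15.9, 34.3 and 12.7 TPM at E18.5, a log2 fold change of 1.94 (SE 0.88, adjusted p = 0.125) with stages that just do not overlap, and 0.88 (SE 0.44, adjusted p = 0.196) without E16.5 replicate C. Ins1, insulin 1, measured 2.18, 0.757 and 0.247 TPM at E16.5 and 6.91, 15.6 and 0 TPM at E18.5, and Ins2 4.36, 3.22 and 0 TPM and then 7.80, 12.4 and 0 TPM. Both insulin genes were at 0 in E18.5 replicate C, as 4 of the 7 hormones were, while Ghrl reached its highest level there. With 3 reads as the limit, a 0 in this shallowest library allows up to 0.563 TPM for Ins2. Reads of Ins1 were not recovered, so no such limit is given for it. Ins1 had a log2 fold change of 1.41 (SE 0.98, adjusted p = 0.289), and 2.58 (SE 0.52, adjusted p = 0.0321) without E18.5 replicate C. E18.5 replicate B was the highest library for 5 of the 7 hormones, as it was among E18.5 libraries for Chga. Pyy, peptide YY of islet and gut, measured 2.96, 10.2 and 0.397 TPM and then 2.55, 8.68 and 1.56 TPM.

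Genes for secretory granules and hormone processing gave 0 calls among 7 tested of 14 in limma, with a median of 0.48, and 1 had an unadjusted p under 0.05, against 0 and 2 in limma voom. The median was 0.12 without E16.5 replicate C, 0.20 without E18.5 replicate B, 0.23 without the filter and 0.14 under median-of-ratios scaling. Chgb, chromogranin B, measured 23.4, 12.8 and 0.915 TPM at E16.5 and 3.09, 7.43 and 3.06 TPM at E18.5, the same order as Chga at E16.5 and the same highest library at E18.5. Its log2 fold change was -0.73 (SE 0.89, adjusted p = 0.539), and -1.82 (SE 0.43, adjusted p = 0.0390) without E16.5 replicate C. Pam, which amidates peptide hormones, had 0.77 (SE 0.25, adjusted p = 0.0542), and 1.0 (SE 0.22, adjusted p = 0.0376) without E16.5 replicate A. Cpe, which trims basic residues from prohormones, had 1.02 (SE 0.46, adjusted p = 0.127), and Scg5 0.48 (SE 0.42, adjusted p = 0.384).

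The acylating enzyme and the receptor of ghrelin were near the limit of detection. Mboat4, the enzyme that attaches the fatty acid to ghrelin, measured 0.318, 0.279 and 0.341 TPM at E16.5 and 0, 0.320 and 0.536 TPM at E18.5, from 0 to 5 reads a library. Ghsr, the ghrelin receptor, lay between 0 and 0.198 TPM. The protease Pcsk1 measured 2.62, 0.641 and 0.0895 TPM and then 0.443, 0.803 and 0.176 TPM, the order of the endocrine factors at E16.5, and the broadly expressed protease Furin lay between 54.5 and 76.4 TPM. Furin alone was tested and was not called, at 0.28 (SE 0.11, adjusted p = 0.0868). Among 5 tested genes for glucose sensing 1 rose and 1 fell, beside 31.2% of all tested genes called in either direction. Slc2a2, the glucose transporter of beta cells and of hepatocytes, rose by 0.85 (SE 0.14, adjusted p = 0.0113) from 197 ± 29.3 to 355 ± 28.1 TPM. Gipr, the receptor of the gut hormone GIP, fell by 1.0 on the log2 scale (SE 0.22, adjusted p = 0.0194) and its stages did not overlap. Slc2a2 lost its call under median-of-ratios scaling and Gipr without the filter, without E16.5 replicate B and without E18.5 replicate B, and both lost it without E18.5 replicate A.

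**Figure D4:**
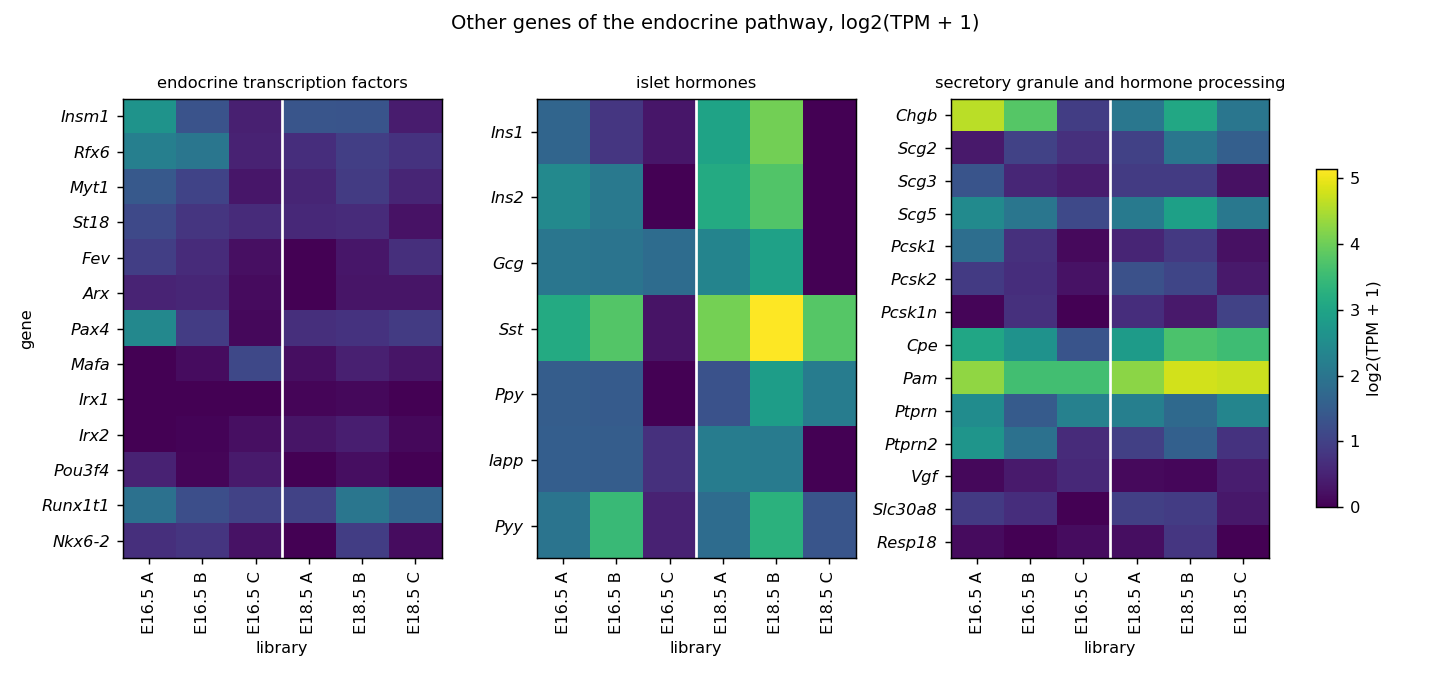
Colour gives log2(TPM + 1) of each gene (rows) in the 6 libraries (columns, a white line between the stages) for 13 of the endocrine transcription factors, the islet hormones and granule or processing genes. Insm1 and Rfx6 are brightest in E16.5 replicate A, and 5 of the 7 hormones in E18.5 replicate B, where all 7 sum to 87.3 TPM against 4.01 TPM in E16.5 replicate C.

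Markers of other cell types that the sort could hold were read beside the 10 genes. The counts for each list stand beside 5828 higher and 1172 lower among the 22452 genes tested. Of the acinar genes 11 of 12 were tested and 4 were lower at E18.5, among them the digestive enzyme genes Ctrb1 and Cpa1 and the lipase relative Pnliprp1, with log2 fold changes of -4.77, -3.79 and -3.72. The acinar count went to 0 when any of the E18.5 libraries was left out, and to 1 without E16.5 replicate B, without the filter and under median-of-ratios scaling. It was also 0 with limma voom, which fitted only 8 of the acinar genes and left out Pnliprp1. None of the 12 was at 0 at E16.5, and Clps, Cela3b, Pnlip and Prss2 were at 0 in E18.5 replicate C. The E16.5 A over B ratio had a median of 9.78 over the acinar genes and 1.93 over the 9 of the 10 genes that have a ratio, whose highest was 3.61 for Neurog3. For gut hormone cells 0 of 5 tested genes were called and 0 had an unadjusted p under 0.05, in limma and in limma voom. Sct, secretin, which gut endocrine cells make, measured 33.4, 20.5 and 0.389 TPM at E16.5 and 2.49, 14.3 and 1.53 TPM at E18.5. In the gut and gallbladder list Tff3 and Fabp2 fell, by 1.24 and 1.55 on the log2 scale, and the other 5 tested did not pass. Without E18.5 replicate A 0 of them were called, and 1 was without E16.5 replicate A, E16.5 replicate B or E18.5 replicate B. Sox2, a stomach and oesophagus factor, was at 0 in all 6 libraries. The summed gut endocrine cell markers were 81.2, 77.6 and 31.5 TPM at E16.5 and 42.8, 55.4 and 39.0 TPM at E18.5. Ddc alone gave 36.8, 39.7 and 30.4 TPM of this sum at E16.5 and 38.9, 20.1 and 31.4 TPM at E18.5. Nearly all of the sum in E16.5 replicate C was therefore Ddc. The gut and gallbladder markers lay between 58.6 and 135 TPM. For neurons and glia, where Isl1 and Chga are also made, the sum stayed between 4.22 and 9.32 TPM and 0 of 2 tested genes were called or had an unadjusted p under 0.05, in limma and in limma voom. Of mesenchymal markers 1 of 6 tested rose, Wt1, by 1.88 (SE 0.35, adjusted p = 0.0139), and 5 of the 6 had an unadjusted p under 0.05 in limma and in limma voom. The share of all genes with such an unadjusted p is not given here, and 31.2% were called after adjustment. The mesenchymal median was 1.19 beside 0.42 over all genes tested. It was 0.74 beside 0.01 under median-of-ratios scaling, and 0.85 without E18.5 replicate C. Col1a1 had 1.36 (adjusted p = 0.0555) and Lum 1.09 (adjusted p = 0.0530). The mesenchymal sum was 83.5 to 188 TPM at E16.5 and 186 to 540 TPM at E18.5. Of cholangiocyte markers 8 of 11 tested rose, beside the 31.2% of all genes called, but 1 without E18.5 replicate A, 2 without E18.5 replicate B, 5 without E18.5 replicate C, 4 without the filter and 3 under median-of-ratios scaling. Of hepatoblast markers 6 of 10 fell, but 2 when any E16.5 library or E18.5 replicate A was left out, 3 without E18.5 replicate B and 2 without the filter. The part of these cells in the levels of the 10 genes was not tested.

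Correlations across the 6 libraries are given as a description over points that share their libraries, and they were high among 5 of the endocrine factors and lower for Neurod1. The Pearson correlation of log2(TPM + 1) was 0.98 between Neurog3 and Nkx2-2, 0.97 between Nkx6-1 and Nkx2-2, 0.97 between Pax6 and Isl1 and 0.95 between Neurog3 and Isl1, and the lowest among these 5 was 0.83, between Nkx6-1 and Pax6. Neurod1 had 0.90 with Nkx2-2, 0.85 with Neurog3, 0.81 with Nkx6-1, 0.74 with Isl1 and 0.70 with Pax6. Ghrl stood apart from them with 0.11 to 0.44 against the 6 factors, and correlated 0.78 with Pdx1 and 0.72 with Chga. With only 6 libraries, values above 0.95 were not particular to a single gene: of 11383 candidate genes, 69 exceeded 0.95 with Ghrl, 14 with Chga and 15 with Pdx1. Among the genes most like Ghrl were Rcn3 and Fgd6, each at 0.99. Those most like Chga were Dmbt1 at 0.99, a secreted glycoprotein of epithelia, and the histone genes Hist1h2ak and Hist1h1b at 0.98. Dmbt1 measured 47.8, 9.96 and 0.835 TPM at E16.5 and 4.72, 24.6 and 9.04 TPM at E18.5. Those most like Pdx1 were Psmb7, Mad2l2 and Vil1, each at 0.97, and Vil1, villin of the brush border, measured 29.6, 19.9 and 8.86 TPM at E16.5 and 26.8, 21.8 and 18.3 TPM at E18.5.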

How the data were processed

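RNA was sequenced from Sox9-GFP-positive liver cells with 3 libraries for each of E16.5 and E18.5. Stages and replicate letters came from the sample labels. The authors checked reads with FastQC 0.11.7, used Trimmomatic for trimming and HISAT2 2.1.0 for alignment to GRCm38, counted them with HTSeq-count 0.5.4p3 (annotation GENCODE vM15) and turned counts into TPM. The kit was stranded, but whether the counting used strand is not given in the sources used here. The deposited values are TPM for 52550 genes.

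TPM was multiplied by exon length (GENCODE vM21) and divided by the worth of 1 read. This gave whole numbers within 0.01 for 100% of 180057 nonzero values of the 49035 genes with the same Ensembl version in both annotations. Reads were recovered for 49583 genes. They came to 26206374, 23193537 and 23457078 reads (E16.5 A, B, C) and 22643868, 17057572 and 13093937 reads (E18.5). The remaining genes, Epcam, Sst and Ins1 among them, are missing from these totals and from limma voom. Intervals are 95% exact and limits are 3 reads. They cover counting error only. Libraries of a stage differed beyond sampling noise (chi-square per degree of freedom 15.1 or more).

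The test between stages was limma 3.58.1 (R 4.3.3, moderated with a mean-variance trend) of log2(TPM + 1) for the 22452 genes averaging 1 TPM or more, with p-values adjusted by Benjamini-Hochberg and a threshold of 0.05. The sources do not say that the pools of a stage were collected independently, so p-values measure only the spread between libraries, which may be technical. The steps were tested on simulated data. Exact permutation tests were run in Python 3.11.15. The 11 alternatives were a pseudocount of 0.1, no filter, median-of-ratios scaling, limma voom on recovered reads, the letters as a block and each library left out, all but the fit without a filter and voom keeping the same genes. The 10 genes and the lists were chosen with earlier results of these data known. Genes named from lists were those past the threshold and the 4 with the highest mean, unless stated. For the 3 of the 10 genes with the highest mean, the 3 protein-coding genes (mean of at least 5 TPM) with the highest correlation were named. Sox2, Cela3b, Pnlip and Prss2 were named after their values were seen. Results for some genes that meet these rules are not reported here. Promoters came from RefSeq (GRCm38.p6), which matched 10 of 10 genes.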

Additional observations from a re-analysis of the deposited data

How the results depend on the processing

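Of the 10 genes, 0 were called under any of the 11 alternatives, but only the fit without a filter tested all 10, and the others tested 5. Over all genes, 4282 were called without the filter and 3795 under median-of-ratios scaling, against 7000, and leaving out a library gave 1148 (without E18.5 replicate A) to 5432 (without E18.5 replicate C). Of the pathway genes, 2 (without E18.5 replicate A) to 15 (without E16.5 replicate C) were called, against 13. The log2 fold change of Neurog3 became 0.081 with limma voom, and that of Chga -0.15 under median-of-ratios scaling. Leaving out libraries gave -0.26 to 1.18 for Pdx1, -1.49 to 0.20 for Neurog3, -0.60 to 0.079 for Isl1 and -0.56 to 0.86 for Chga, and the cause was not tested. Over all alternatives the adjusted p ran from 0.228 to 0.808 for Pdx1, 0.114 to 0.977 for Neurog3, 0.232 to 0.949 for Isl1 and 0.365 to 0.928 for Chga. With the letters as a replicate block 7314 genes were called, with 0 of the 5 tested genes of the 10 among them, and 14 pathway genes, Foxa1 being added. Whether the letters pair libraries is not stated in the sources used here, and 3 libraries a stage are too few to decide it. The deviations of same-lettered libraries correlated -0.042 (A), 0.081 (B) and 0.140 (C). The value for C was the highest of all pairs between the stages, but not every library correlated best with its own letter. Depth limits the 13 values at 3 reads or fewer, and E18.5 replicate C has the fewest reads.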

Other observations

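Set per 100 TPM of Epcam, an epithelial surface protein of cholangiocytes, a scale chosen after the values were seen, Pdx1 was 8.0, 4.84 and 0.874 in E16.5 replicates A, B and C, then 2.36, 1.89 and 2.33 at E18.5. Neurog3 was 8.93, 2.21 and 0 at E16.5 and 0.480, 0.685 and 0.215 at E18.5. Chga was 12.5, 4.66 and 2.87 and then 0.913, 3.40 and 2.83. Ghrl was 17.3, 12.2 and 29.0 and then 6.30, 6.55 and 11.4, so on this scale its 3 E16.5 values lay above its 3 E18.5 values, the opposite of the direction in TPM. Epcam itself rose by 1.78 on the log2 scale between the stages (adjusted p = 0.0288 in limma), and Sox9 per 100 TPM of Epcam stayed between 149 and 209. The differences on this scale were not tested.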
